A study of Rattus norvegicus with 3 samples.

Results

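Unplaced sequences are stretches of the rat assembly that carry a name of their own because they have not been set into a numbered chromosome, X, Y or the mitochondrial genome. All peaks whose sequence name was not 1 to 20, X, Y or MT were taken: 510 of the 49591 H3K9me3 peaks (1.03%) and 37 of the 7684 H3K4me3 peaks (0.482%). The peaks come from chromatin immunoprecipitation with sequencing of untreated round spermatids from the testis of Sprague-Dawley rats. There were 3 groups of 1 library each, a precipitate with an antibody against H3K4me3, one with an antibody against H3K9me3, and one without antibody. Peak lists of the 2 marks were used, and peaks of the library without antibody were not analysed here. The labels do not say how many animals gave the cells. The lists hold peaks only, so the labelled cell type could not be checked against marker genes.

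H3K9me3 is trimethylation of lysine 9 of histone H3. It is laid down by enzymes of the SUV39H and SETDB1 families, is bound by HP1 proteins and is known for compact chromatin over repeats and silent genes. H3K4me3 is laid down by the SET1 and MLL enzymes and is known for promoters that are active or poised. In round spermatids both are read before most histones are exchanged for protamines. Sequences that an assembly could not place are often rich in repeats or in near-identical copies, where short reads are hard to assign. How reads with several matching places were handled is not given in the sources used here, and the repeat content of these sequences was not tested. The base sequences of these regions were not used here.

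Each mark rests on 1 library of unknown depth, which leaves the values without replicate error and without a p-value. The 95% intervals reflect counting error alone, as if peaks were independent of each other. The score is the authors' own value per peak, with no stated definition, and is compared only between places within a list. The word negative in the naming of both lists is taken as the library without antibody used as control, which the labels do not state. If it meant peaks called in the opposite direction, all values would describe an excess of the control.

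The H3K9me3 peaks lay on 79 unplaced sequences and covered 564 kb, but a few sequences held most of them. The 10 sequences with the largest covered length carried 315 of the 510 peaks and 67.8% of the covered length. The median sequence carried 2 peaks over 1.72 kb. A single peak was listed on 36 sequences, 2 to 9 peaks on 31 sequences with 116 peaks in all, and 10 or more on 12 sequences with 358 peaks. Single peaks had scores from 30.2 to 285 with a median of 48.7. Peaks on the 12 fullest sequences had a similar median, 45.3, although the medians of these sequences ran from 32.7 to 486.

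The largest covered length, 81.8 kb in 51 peaks, was on KL568410.1. KL568156.1 had the most peaks, 74, over 61.2 kb. AABR07024039.1 followed with 48.2 kb in only 17 peaks, then KL568409.1 with 42.2 kb in 27 peaks and KL568162.1 with 39.7 kb in 52 peaks. AABR07024031.1 had 34.3 kb in 17 peaks. KL568159.1 and KL568152.1 had 22.2 and 19.2 kb in 32 and 26 peaks. KL568434.1 and KL568458.1 closed the list with 17.7 and 16.3 kb in 9 and 10 peaks. Equal covered length thus came from many narrow peaks on some sequences and few wide ones on others.

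**Figure D1:**
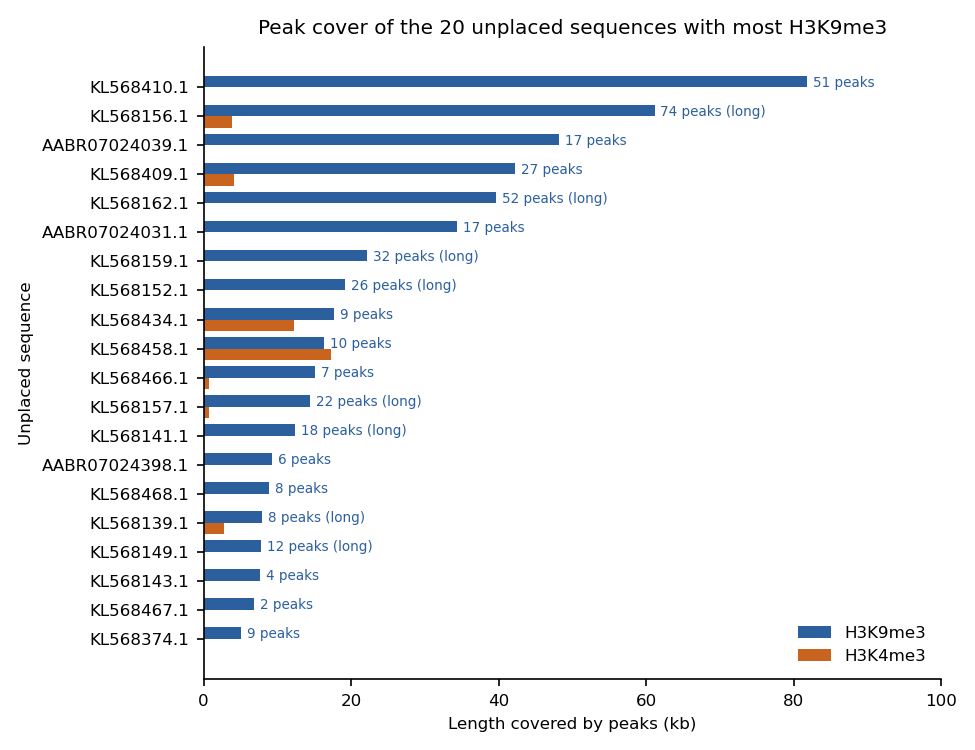
Length covered by peaks (kb, horizontal axis) on the 20 unplaced sequences with the largest H3K9me3 cover (vertical axis), in blue for H3K9me3 and orange for H3K4me3. The number is that of H3K9me3 peaks, and "long" marks sequences with a peak beyond 1 Mb. KL568410.1 leads with 81.8 kb and has no H3K4me3 peak, and KL568458.1 has about as much H3K4me3 as H3K9me3 cover.

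Over all 510 peaks, H3K9me3 scores and widths on unplaced sequences lay towards the low end of the autosomes. The median score was 50.5 (interval 46.3 to 54.9), against 61.4 for the 48148 peaks of chromosomes 1 to 20. Of the 20 autosomes 18 had a higher median, and the range over them was 42.3 on chromosome 20 to 88.1 on chromosome 13. The median width was 777 bp (734 to 828), against 935 bp, and 19 of the 20 autosomes were wider. Scores under 50 were found for 254 peaks (49.8%, Wilson interval 45.5 to 54.1%), against 39.4% on the autosomes. At the high end the interval included the autosomal share: 46 unplaced peaks (9.02%, 6.83 to 11.8%) and 10.1% of the autosomal peaks were in the upper 10% of the whole list, whose lower limit is a score of 254. Among peaks at or above the list median score, the unplaced median was 1.01 times (0.907 to 1.22) the autosomal one, in place of 0.822 times over all peaks. That cut kept 208 of the 510 unplaced and 24401 of the 48148 autosomal peaks. It is made on the score being compared, so it does not test the difference over all peaks.

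Within classes of score, unplaced H3K9me3 peaks were also somewhat narrower than the pooled autosomal peaks, though inside the range of single autosomes. For scores from 30 to 50 the median width was 648.5 bp (628 to 666), against 677 bp on the autosomes, which ranged from 639.5 to 695 bp. For 50 to 100 it was 914.5 bp (874 to 956), against 1016 bp and a range of 752 to 1047 bp. In these classes the interval lay below the pooled autosomal median. For 100 to 300 it was 1744 bp (1569 to 1854), against 1770 bp. The 39 peaks scoring 300 or more were 2895 bp wide in the median (1917 to 3692), against 3656 bp, and in both of these classes the interval included the autosomal value. Peaks wider than 5 kb numbered 3 (0.588%, against 1.70% on the autosomes) and lay on AABR07024039.1, KL568434.1 and KL568467.1.

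The median over all unplaced peaks joined 2 unlike classes of sequence. The files give no sequence lengths, so sequences were divided by how far their last listed peak of either mark reached, a lower bound of the length. On 11 sequences, called long below, it reached at least 1.06 Mb and up to 9.81 Mb. On the other 70 it reached at most 454 kb, with a median of 29.0 kb. The boundary at 1 Mb was set after the values were seen, and it falls in this gap. The 11 long sequences all bear names between KL568139.1 and KL568162.1. This range of names is not particular to them. It also holds the short sequences KL568143.1, KL568145.1, KL568146.1, KL568147.1, KL568150.1 and KL568153.1. The median H3K9me3 scores of these short sequences ran from 30.2 on KL568150.1 to 404 on KL568146.1. Whether the long sequences belong to any 1 chromosome was not analysed here.

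The long sequences carried 250 H3K9me3 peaks with a median score of 38.6 (35.9 to 40.04), lower than on any autosome. X, with 917 peaks, had a median of 38.2 (37.2 to 39.2), and Y, with 16 peaks, had 36.7 (32.6 to 57.6). The median width on the long sequences was 686 bp (655 to 713), beside 691 bp on X, 694 bp on Y and 728 bp on the narrowest autosome, chromosome 19. Scores under 50 made up 75.2% (69.5 to 80.1%) of the peaks there, 70.4% on X and 64.8% on the highest autosome. Over all 11, there were 5.95 peaks per Mb reached, beside 5.73 on X, 6.90 on Y and at least 7.13 on each autosome. Their peaks covered 0.449% of the length reached, beside 0.498% on X, 0.538% on Y and at least 0.764% on each autosome. In all of these measures the long sequences stood near X and Y and outside the autosomal range. Because the true lengths are at least those reached, the densities and covered shares of the long sequences are upper bounds. The same holds for X, Y and the autosomes, and the last peak of Y ended at 2.32 Mb. Unplaced sequences without a listed peak do not enter these densities or the windows described below.

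Single long sequences were uneven. Their median scores ran from 32.7 on KL568141.1 to 65.7 on KL568139.1, and 10 of the 11 were under 50. KL568162.1, which reached 9.81 Mb, held 52 peaks, 5.30 per Mb, with scores from 30.3 to 117 and a median distance of 79.7 kb between neighbours. KL568139.1 reached 9.75 Mb with only 8 peaks, 0.820 per Mb. KL568161.1, reaching 4.87 Mb, held 3 peaks. KL568156.1 was the fullest, at 36.1 peaks per Mb over the 2.05 Mb reached, and its first peak started at 591355. Its peaks came in groups, with 15 between 700 and 800 kb, 13 between 1000 and 1100 kb and 11 between 1400 and 1500 kb, whose median scores were 42.5, 47.5 and 43.0. Without KL568156.1 the long sequences had 176 peaks, a median score of 36.2, 4.41 peaks per Mb and 0.319% covered. Leaving out any other long sequence gave medians between 38.3 and 38.9. Without KL568139.1 the density rose to 7.51 peaks per Mb, past the 7.13 of chromosome 11, and the cover to 0.560%, still below all autosomes.

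The 68 short sequences with H3K9me3 carried 260 peaks with a median score of 89.2 (74.2 to 106). Chromosome 13, the highest autosome, was at 88.1, and chromosome 8, the next, at 68.9. The long sequences were at 0.433 times the short ones. The median width was 1000 bp (895 to 1125). Scores under 50 made up 25.4% (20.5 to 31.0%) of the peaks, beside 25.9% on chromosome 13. In the upper 10% of the list were 41 peaks (15.8%, 11.8 to 20.7%), against 5 of 250 (2.00%, 0.857 to 4.596%) on the long sequences. Neighbouring H3K9me3 peaks were a median of 1197 bp apart on the short sequences, 21630 bp on the long ones and 1716 bp on the autosomes. The short class was itself mixed, since 26 of its 68 sequences had a median score under 50.

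**Figure D2:**
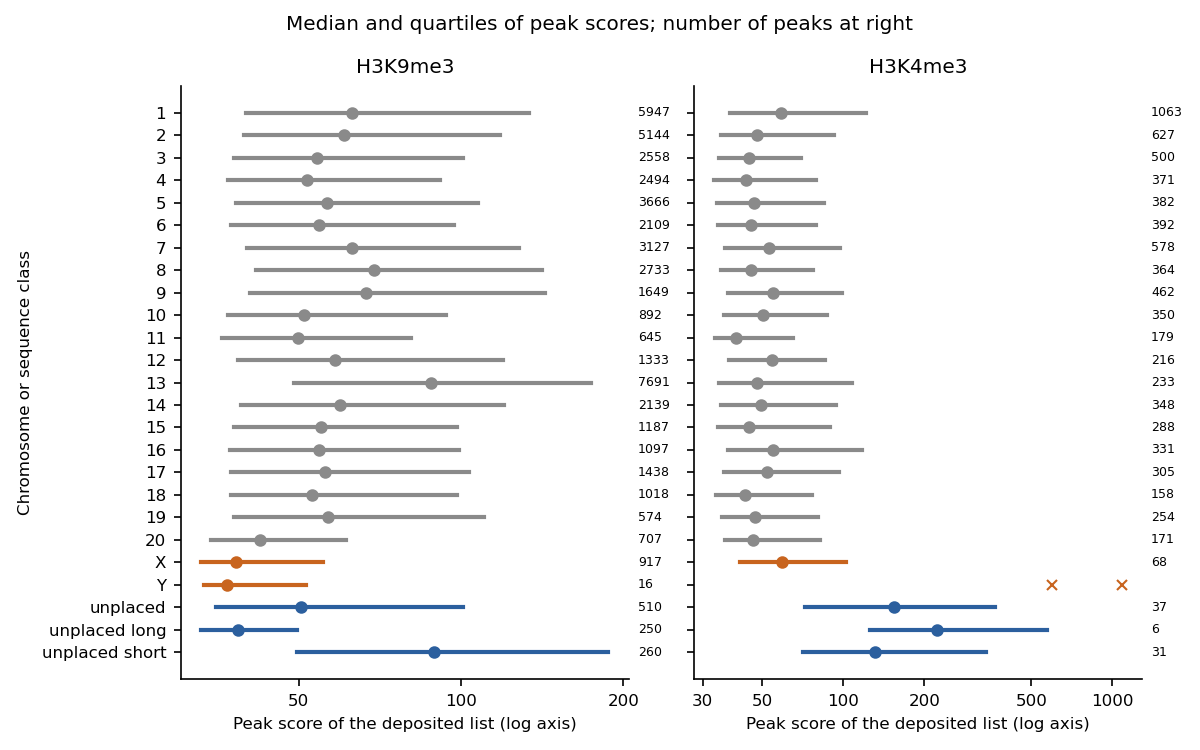
Peak scores (horizontal log axis) of H3K9me3 (left) and H3K4me3 (right) by chromosome and class of unplaced sequence (vertical axis); points are medians, bars run from the lower to the upper quartile, and the number of peaks stands at the right of each panel. The 2 H3K4me3 peaks of Y are shown as crosses. The long unplaced sequences, median 38.6, sit beside X at 38.2 for H3K9me3, the short ones at 89.2 beside chromosome 13 at 88.1, and all unplaced classes sit right of every autosome for H3K4me3.

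Several short sequences were covered by H3K9me3 over most of the length reached, and others only in dense stretches. On AABR07024039.1 the 17 peaks covered 74.9% of the 64.4 kb up to the last peak. Their median score was 115 and the median distance between them 385.5 bp. AABR07024031.1 was covered to 57.9% over 59.3 kb, with a median score of 124. KL568466.1 was covered to 53.1% over 28.5 kb, and its 7 peaks, between 10434 and 28482, filled 83.8% of that span. KL568410.1 was covered to 42.0% over 195 kb, in stretches from 15 to 88680 with 31 peaks (53.2% covered) and from 147208 to 194893 with 15 peaks (57.1%). KL568409.1 was covered to only 10.3% over 409 kb, but its 10 peaks between 381429 and 408803 covered 66.7% of their span. The peaks thus lay in dense stretches, of which those of KL568466.1 and AABR07024039.1 were the fullest of the ones named here and those of KL568410.1 and AABR07024031.1 were covered to under 58%.

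These blocks were set against the autosomes in windows of equal size. All sequences were divided into 50-kb windows from position 1, and only windows that ended before the last peak were kept. Sequences that reached less than 50 kb, KL568466.1 among them, gave no window. The windows of the short class thus came from 24 of its 70 sequences and do not describe the others. Of the 52291 autosomal windows, 931 (1.78%) were covered to at least 40%, and 350 of these lay on chromosome 13. Of the 66 windows on short unplaced sequences 3 passed (4.55%, 1.56 to 12.5%), an interval that includes the autosomal share. Of the 836 on long ones 0 did (0 to 0.457%), and the highest was 21.4%. The 3 windows were the first 50 kb of AABR07024039.1, KL568410.1 and AABR07024031.1, covered to 74.8%, 66.5% and 61.2%. As much cover was reached by 61, 175 and 282 autosomal windows, of which 37, 106 and 169 were on chromosome 13. Cover of this kind was therefore rare on the autosomes but not particular to unplaced sequences.

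Most H3K9me3 peaks lay off H3K4me3 everywhere: 95.6% of the autosomal ones, where 4.42% overlapped an H3K4me3 peak, and 480 of the 510 unplaced ones. KL568410.1, AABR07024039.1 and AABR07024031.1 together had 85 H3K9me3 peaks and no listed H3K4me3 peak (0 to 4.32% by the Wilson interval). These sequences were chosen after their values were seen, so this interval cannot be set against the autosomal share. Of the other sequences with dense stretches, KL568409.1 had 2 of 27 H3K9me3 peaks on H3K4me3 and KL568466.1 had 1 of 7. None of the 44 H3K9me3 peaks on the 5 sequences with AABR names overlapped H3K4me3 (0 to 8.03%), an interval that includes the autosomal share. Their median H3K9me3 score was 117 and median width 1676 bp. In KL568466.1, 1 H3K4me3 peak with a score of 39.1 lay inside an H3K9me3 peak with a score of 131. A missing peak means only that none passed the caller's threshold at an unknown depth.

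The 37 H3K4me3 peaks lay on 15 sequences and covered 49.5 kb. Both marks were listed on 13 sequences, H3K9me3 alone on 66 and H3K4me3 alone on 2. KL568458.1 had 10 H3K4me3 peaks over 17.3 kb, KL568434.1 had 7 over 12.2 kb, and KL568409.1 and KL568156.1 had 3 each. KL568139.1, KL568436.1 and KL568146.1 had 2 each, and the remaining 8 sequences had 1. The median score was 155 (78.8 to 262), against 49.2 for the 7572 autosomal peaks and 40.01 to 58.6 on single autosomes. X, with 68 peaks, had a median of 59.0 (51.8 to 76.4), and the 2 peaks of Y scored 598 and 1085. In the upper 10% of the H3K4me3 list were 14 of the 37 peaks (37.8%, 24.1 to 53.9%), against 9.88% of the autosomal peaks and at most 16.3% on one autosome. The median width was 929 bp (818 to 1302), inside the autosomal range of 796.5 to 987.5 bp. Within 3 of 4 classes of score the median lay below all autosomes. For scores from 50 to 100 the median was 850 bp (508 to 940, 9 peaks), with autosomes at 955 to 1241 bp, and for 100 to 300 it was 880 bp (804 to 1349, 11 peaks), with autosomes at 1365 to 2138 bp. For 30 to 50 it was 673.5 bp (439 to 739, 6 peaks), with autosomes at 690 to 772 bp, and for 300 or more it was 2134 bp, inside their range of 1448 to 4350 bp. Among H3K4me3 peaks on H3K9me3 alone, the median was below all 20 autosomes only for 50 to 100. For 30 to 50 and for 100 to 300 it was above 3 of 20. Among peaks on H3K9me3 in both sets, the median score was 2.31 times (1.10 to 4.57) the autosomal one, in place of 3.15 times over all peaks. Without KL568458.1 the median score over all peaks was 2.36 times the autosomal one, and without KL568434.1 as well it was 1.70 times (0.9997 to 3.23). The size of this difference thus rested partly on 2 sequences, and peaks of 1 sequence are not independent.

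Nearly all H3K4me3 peaks on unplaced sequences lay on H3K9me3. Of the 37 peaks, 34 overlapped an H3K9me3 peak by at least 1 bp (91.9%, Wilson interval 78.7 to 97.2%), beside a background of 31.5% (2388 of 7572) on the autosomes. Single autosomes had between 4.29% (chromosome 10) and 48.3% (chromosome 16), so the unplaced share was above all 20. X was also above all 20, at 72.1% (60.4 to 81.3%), and the 2 H3K4me3 peaks of Y both overlapped H3K9me3. On the long sequences all 6 H3K4me3 peaks overlapped, and on the short ones 28 of 31 did. Without KL568458.1 the share was 92.6% (76.6 to 97.9%), and without KL568434.1 as well 18 of 20 peaks overlapped (69.9 to 97.2%). The share was also above the autosomal one within each class of score. For scores from 30 to 50 it was 6 of 6 (61.0 to 100%) against 21.5% on the autosomes, for 50 to 100 it was 7 of 9 against 35.7%, for 100 to 300 it was 10 of 11 (62.3 to 98.4%) against 42.2%, and for 300 or more it was 11 of 11 (74.1 to 100%) against 74.1%. In the highest class the lower bound of the interval and the autosomal share differed by less than the last digit given.

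From the side of H3K9me3 the pooled share was near the background, but the classes of sequence differed, largely through KL568458.1 and KL568434.1. Of the 510 peaks, 30 overlapped H3K4me3 (5.88%, 4.15 to 8.27%), beside 4.42% (2129 of 48148) on the autosomes, where it ran from 0.832% on chromosome 13 to 19.9% on chromosome 19. On the short sequences 24 of 260 peaks overlapped (9.23%, 6.28 to 13.4%), and on the long ones 6 of 250 (2.40%, 1.10 to 5.14%). Without KL568458.1 and KL568434.1 the pooled share was 3.05% (1.86 to 4.98%). These 30 lay on 13 sequences, and 15 of them on KL568458.1 and KL568434.1. Both are short sequences, so these 15 were among the 24 of the short class, whose higher share rested largely on them. The 30 overlapping peaks had a median score of 531, with a range of 45.0 to 3100, and a median width of 1277 bp. The 480 peaks off H3K4me3 had a median score of 47.6 and a width of 759 bp. On the autosomes the medians were 290 for peaks on H3K4me3 and 59.2 for peaks off it. Among unplaced H3K9me3 peaks with a score of at least 300, 53.8% (38.6 to 68.4%) lay on H3K4me3, against 27.8% on the autosomes. Of these 21 overlapping peaks 12 lay on KL568458.1 and KL568434.1, and without these sequences the share was 9 of 27 (33.3%, 18.6 to 52.2%), an interval that includes the autosomal share. For scores from 30 to 50 the share was 0.394% (0.0695 to 2.20%) against 1.12%.

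**Figure D3:**
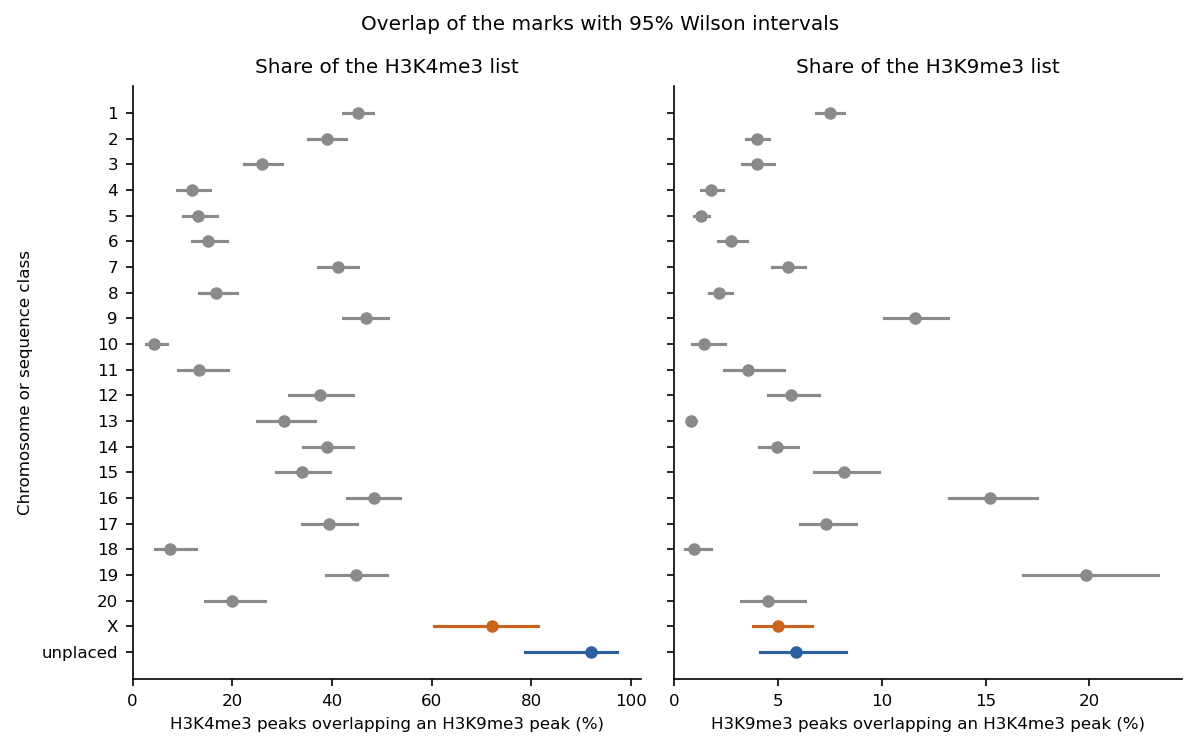
Share of H3K4me3 peaks that overlap an H3K9me3 peak (left, %) and of H3K9me3 peaks that overlap an H3K4me3 peak (right, %) by chromosome and on unplaced sequences (vertical axis); points are shares and bars 95% Wilson intervals. The unplaced point lies at 91.9% on the left, above every autosome, and at 5.88% on the right, within the autosomal range.

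KL568458.1 carried the most H3K4me3 peaks, and the borders of its largest peaks nearly coincided between the marks. Its 5 highest H3K9me3 peaks lay between 11150 and 30794. The peak from 11150 to 15282, with an H3K9me3 score of 2035, matched an H3K4me3 peak from 11182 to 15341 with a score of 1372. Shared bases made up 97.8% of the bases that either peak covered. The H3K9me3 peaks at 22524 to 24466, 24833 to 27186 and 27485 to 30794, with scores of 1374, 1349 and 1459, matched H3K4me3 peaks at 22514 to 24570, 24737 to 27153 and 27338 to 30898, with scores of 1700, 962 and 1250. In these pairs shared bases were 94.5%, 94.7% and 93.0% of the joint length. All 4 of these H3K4me3 peaks were among the 5 highest on unplaced sequences. They ranked 72, 56, 99 and 80 in the whole H3K4me3 list, in the order given. Of the 10 H3K4me3 peaks here, 9 overlapped H3K9me3, and of the 10 H3K9me3 peaks, 9 overlapped H3K4me3.

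KL568434.1 held the 2 highest H3K9me3 scores on unplaced sequences, and both of these peaks overlapped H3K4me3. Its peak from 60605 to 67788, 7184 bp wide, had a score of 3100, exceeded by only 6 peaks of the whole list and shared with many others. It overlapped H3K4me3 peaks at 61119 to 63034 and 63048 to 66389 with scores of 172 and 311. The peak from 40732 to 44606, with an H3K9me3 score of 2293, overlapped an H3K4me3 peak at 41169 to 44543 with a score of 376. All 7 H3K4me3 peaks of this sequence lay on H3K9me3, with H3K4me3 scores from 66.6 to 376. The 3 H3K9me3 peaks without H3K4me3 had the 3 lowest H3K9me3 scores on the sequence, 61.6 to 120.

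The other H3K9me3 peaks among the 10 highest were spread over 4 sequences. On AABR07024039.1 the peak from 23149 to 37467 was the widest on any unplaced sequence, at 14319 bp. Its score was 1914 and no H3K4me3 peak overlapped it. KL568139.1 had only 8 H3K9me3 peaks, of which 4 lay between 9737047 and 9750782. There the peak from 9737047 to 9739177 had a score of 1812 and overlapped an H3K4me3 peak at 9737142 to 9738923 with a score of 786. A second pair followed at 9749733 to 9750782, with scores of 657 for H3K9me3 and 291 for H3K4me3. On KL568384.1 a peak with a score of 1207 ran from 6 to 1638, at the very start of the sequence, and had no H3K4me3. In all, 5 H3K9me3 peaks began within the first 100 bp of their sequence, so their outer border may lie beyond the assembled end. On KL568156.1 the peak from 591355 to 593375, with a score of 1020, overlapped an H3K4me3 peak at 591478 to 593190 with a score of 663.

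The remaining shared sequences carried smaller pairs. On KL568461.1 the H3K4me3 peak from 10290 to 11459 had a score of 824, the fifth of its mark on unplaced sequences, and the H3K9me3 peak from 10214 to 11463 had 765. On KL568409.1 the H3K4me3 peaks at 218381 to 220514 and 220519 to 221820, with scores of 366 and 159, lay in 1 H3K9me3 peak with a score of 553. On KL568436.1 and KL568146.1, 2 H3K4me3 peaks each lay on 1 H3K9me3 peak, with H3K9me3 scores of 933 and 756 and H3K4me3 scores of at most 131. KL568337.1, KL568157.1, KL568145.1, KL568466.1 and KL567881.1 had 1 pair each, with H3K9me3 scores of 426, 294, 222, 131 and 97.6. Their H3K4me3 scores ran from 39.1 to 78.8.

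Over all 34 overlapping pairs, the median distance was 91.5 bp between starts and 109 bp between ends, beside 216 and 206 bp in the 2510 autosomal pairs. Shared bases made up a median of 78.4% of the joint length, beside 54.9% on the autosomes, and at least 90% in 9 of 34 pairs (26.5%, 14.6 to 43.1%), beside 12.2%. Without KL568458.1 the median was 67.4%, 4 of 25 pairs reached 90% (16.0%, 6.40 to 34.7%), and the median distances were 111 bp for starts and 223 bp for ends, the latter above the autosomal 206 bp. The closer ends and the larger share of pairs at 90% thus rested largely on this sequence. Without it, starts were still closer and the median of shared bases still higher than in the autosomal pairs. The H3K9me3 score exceeded the H3K4me3 score in 31 of 34 pairs, beside 83.8% of the autosomal pairs, but scores of separate lists share no common scale. Spearman's rho of the scores was 0.661 over the 34 pairs, 0.611 over the 25 pairs outside KL568458.1 and 0.317 over the autosomal pairs. These are descriptions with no p-value, since pairs share sequences and libraries. Copy number, repeats and coverage of the control on these sequences were not tested.

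**Figure D4:**
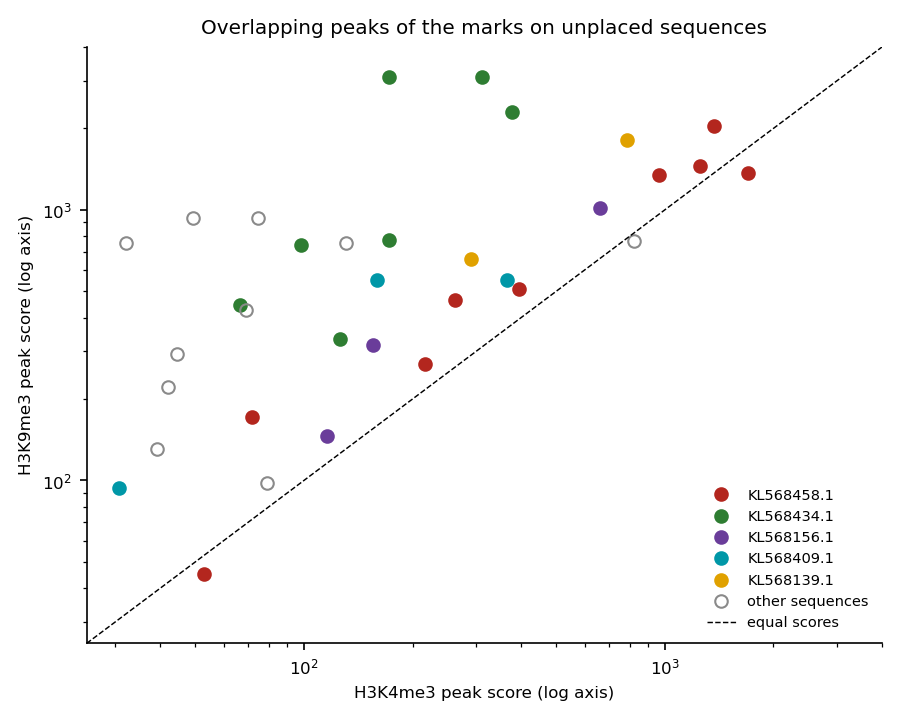
H3K9me3 score (vertical log axis) against H3K4me3 score (horizontal log axis) of the 34 overlapping pairs on unplaced sequences, coloured by sequence, with a dashed line at equal scores. Pairs of KL568458.1 run along the line, pairs of KL568434.1 lie well above it, and 3 of the 34 pairs lie below it.

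The H3K4me3 peaks off H3K9me3 numbered 3. Those on KL567901.1, from 16356 to 17224 with a score of 77.9, and on KL568273.1, from 2057 to 3234 with a score of 88.6, were on sequences without any H3K9me3 peak. The other, on KL568458.1 from 52860 to 53518 with a score of 155, lay 1063 bp from the nearest H3K9me3 peak. For these peaks and all others named here, positions follow the sequence names of the deposited lists, with rn6 as the build per the submitters' processing notes. Genes on these sequences were not analysed here.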

How the data were processed

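The tools FastQC, bcl2fastq and Bowtie 1.2 and the build rn6 are named in the submitters' processing notes. No roles, mapping settings or peak caller settings are given in the sources used here, and the peak names carry the word MACS. The deposited lists give a sequence name, start, end and the authors' score per peak. One library per mark was used, of unknown depth, and starts are counted from 1. No peak overlapped another of its own list.

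Peaks per sequence, covered length, medians with binomial order-statistic intervals and Wilson intervals of shares were computed with scipy 1.17.1, pandas 2.3.3 and numpy 2.4.6 under Python 3.11.15, and plotted with matplotlib 3.10.9. The overlap code was tested on simulated data. Chromosome lengths were taken as the last peak end of either list. The members and lists were chosen with earlier results of these data known. Named by rule were the 10 sequences with the largest H3K9me3 cover, those with overlapping marks, the 10 highest H3K9me3 peaks and the 5 highest H3K4me3 peaks. Other named regions, the 1-Mb boundary, the 50-kb windows with their 40% limit, the score classes and the 90% limit for shared bases were chosen after values were seen. No genome or annotation of rn6 was used here.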

Additional observations from a re-analysis of the deposited data

How the results depend on the processing

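Of 29 alternative values for 7 results, 19 stayed within the counting interval of the reported value and 10 moved outside it. Intervals of ratios held the second median fixed, though the median of the short class had its own interval (74.2 to 106). The long to short ratio without KL568410.1 was counted as moved on that basis. For the share of covered length, the interval treated the 510 peaks as the counted units, though cover is measured in bases. Over all peaks, the median H3K9me3 score on unplaced sequences was 0.822 times and the median width 0.830 times that of the autosomes. With peaks at or above the list median score, a cut on the compared score itself, these became 1.01 and 0.915. They were 1.45 and 1.07 for the short sequences alone and 0.629 and 0.734 for the long ones alone, so the direction depended on which sequences were counted. Without chromosome 13 (0.875 and 0.864) or the sequence with the largest cover (0.764 and 0.791) both stayed below 1. The share of H3K9me3 peaks on H3K4me3 moved from 5.88% to 12.0% among peaks at or above the list medians (5.48% on the autosomes) and to 3.05% without KL568458.1 and KL568434.1, below the autosomal 4.42%. The share of H3K4me3 peaks on H3K9me3 stayed between 87.1% and 92.6% under every alternative run. The ratio of long to short median scores was 0.433 with the boundary at 1 Mb, 0.423 at 0.2 Mb, 0.601 at 2 Mb and 0.458 without KL568410.1. The 10 sequences with most cover held 67.8% of it, and the 10 with most peaks held 65.9% of those. Settings for long and short sequences, and those without sequences rich in H3K4me3, were chosen after seeing the data. No paired analysis was possible because each group has 1 library and no test was made. Unknown depth and unknown sequence lengths limit what absent peaks and densities show.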
